A study of Homo sapiens with 15 samples.

Results

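The response to RNF5 knockdown was compared between U937 and HL-60, a pair of human acute myeloid leukemia lines, by the difference between their log2 fold changes. RNF5 is a RING-domain E3 ubiquitin ligase anchored in the membrane of the endoplasmic reticulum (ER), where it marks proteins for degradation. U937 has monocytic features and HL-60 has promyelocytic features, and both can be driven to differentiate in culture. The comparison used 10 of the 15 libraries of the series: 2 pLKO_U937 libraries (replicates 2 and 3), 2 shRNF5_U937 libraries (replicates 1 and 3), 3 pLKO_HL_60 libraries and 3 shRNF5_HL_60 libraries. pLKO cells carried the empty lentiviral vector and shRNF5 cells carried a short hairpin RNA (shRNA) against RNF5, and the labels do not say which of the study's hairpins was used. The sample labels put the RNA 7 days after knockdown and the series' design text puts it at 5 days. U937 was grown in RPMI medium and HL-60 in IMDM, so the line and its medium cannot be told apart. The other 5 libraries, of the AML line MOLM-13, were set aside and are used only where named.

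The values were the authors' normalized read counts, rounded to whole numbers and normalized within each line, and fold changes were differences of log2(value + 1). Genes that failed the authors' filter on low counts are listed at 0, so a 0 is not a count of 0. Of 57820 gene identifiers, 11518 were above 0 in at least 1 library of each line and were tested. A gene was called at a Benjamini-Hochberg adjusted p under 0.1 in limma together with a log2 value over 0.4 in size. A positive difference means that the gene's response was higher in U937 than in HL-60. Nothing in the labels says that replicates were separate cultures, so p-values measure the spread between libraries, which may be technical. In bulk RNA, a change in the share of cells of one kind and a change in RNA per cell cannot be told apart.

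The libraries held an estimated 13300000 to 21400000 counted reads, and no pair of libraries had identical values. Of 14 myeloid marker genes, 13 were above 0 in U937 and 12 in HL-60, with CD68 listed at 0 in both lines and CSF1R listed at 0 in HL-60. All markers of T cells, erythroid cells and megakaryocytes were listed at 0 in all 10 libraries. Of the 5 B cell markers, 4 were above 0 in U937, with a summed value of 334 to 346 in pLKO and 321 to 368 in shRNF5 libraries, and 1 was above 0 in HL-60, at 22 to 34 in pLKO and 38 to 44 in shRNF5. The summed value of the myeloid markers was 66932 to 70223 in pLKO_U937 and 32012 to 40318 in shRNF5_U937, and 125632 to 156621 in pLKO_HL_60 and 178223 to 271137 in shRNF5_HL_60. The summed level therefore fell in one line and rose in the other with no overlap of libraries. A sum follows its most abundant members and does not give the direction of each marker. CTSG, AZU1 and ELANE moved with the sum in both lines, while CYBB was called up in U937 and was not called in HL-60. Of 20 genes over 1000 in every HL-60 library and at most 30 in pLKO_U937, 19 were listed at 0 in every U937 library. Of 24 genes over 1000 in every U937 library and at most 30 in pLKO_HL_60, 11 were listed at 0 in every HL-60 library.

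The RNF5 transcript fell by a similar amount in both lines. In U937 the values were 648 and 843 with pLKO and 46 and 74 with shRNF5, and in HL-60 they were 506, 689 and 545 with pLKO and 37, 133 and 43 with shRNF5, with no overlap between constructs in either line. The log2 fold change was -3.64 ± 0.48 in U937 (SE, adjusted p = 0.00111) and -3.25 ± 0.39 in HL-60 (adjusted p = 5.63e-04). The difference of responses was -0.39 ± 0.61 (adjusted p = 0.666), so unequal depletion was not detected at the RNA level. The RNF5 gene has a near-identical processed pseudogene, RNF5P1, and reads shared with it may be counted under either identifier.

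Several genes that the study followed after RNF5-KD moved the same way in both lines. CDKN1A, which encodes the cyclin-dependent kinase (CDK) inhibitor p21, rose from 201 and 115 to 1057 and 744 in U937 and from 12, 7 and 7 to 41, 21 and 39 in HL-60, and the difference of responses was 0.71 ± 0.56 (adjusted p = 0.37). LIMK1, a kinase that acts on cofilin, rose by 1.06 ± 0.22 in U937 and by 1.25 ± 0.18 in HL-60 (log2, difference adjusted p = 0.653). NCF1, a cytosolic subunit of the NADPH oxidase, rose by 2.56 ± 0.37 and 1.78 ± 0.30 (difference adjusted p = 0.242). SAP18, a subunit of Sin3 deacetylase complexes, had a log2 fold change of -1.01 ± 0.23 in U937 and -0.95 ± 0.19 in HL-60 (difference adjusted p = 0.895). BCL2A1, an antiapoptotic BCL2 relative, fell in HL-60 (-1.53 ± 0.36) but was not called in U937 (-1.01 ± 0.45, adjusted p = 0.113). It had values of 3046 and 1319 with pLKO and 1138 and 864 with shRNF5 in U937 and 34, 37 and 35 with pLKO and 9, 8 and 21 with shRNF5 in HL-60, and the difference of 0.52 ± 0.57 was not called (adjusted p = 0.533). From the same set, ANXA1 and, less stably, CDKN2D were called in the difference. ANXA1, a calcium-dependent membrane-binding protein, rose in U937 (502 and 820 with pLKO and 2608 and 3200 with shRNF5) while HL-60 had 1285, 1043 and 982 with pLKO and 1402, 1483 and 1506 with shRNF5, and the difference of responses was 1.75 ± 0.29 (adjusted p = 0.00292). CDKN2D, an inhibitor of CDK4 and CDK6, rose in both lines, by 0.93 ± 0.26 in U937 and by 1.81 ± 0.21 in HL-60, and the difference of responses was -0.88 ± 0.34 (adjusted p = 0.0726). The call of CDKN2D was lost in 7 of the 10 refits that left out 1 library, with array weights, with the correction for length and GC and at an adjusted p under 0.05.

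Across all genes, the difference between the lines was called in 3957 of 11518 genes (34.4%), higher in U937 in 2012 (17.5%) and lower in U937 in 1945 (16.9%). In the same fit, 2048 genes (17.8%) rose and 1816 (15.8%) fell in U937, and 1239 (10.8%) rose and 948 (8.23%) fell in HL-60. The median log2 fold change over all genes was 0.04 in U937 and 0.01 in HL-60. Leaving out shRNF5_U937 replicate 1 reduced the called differences to 2200 and the U937 calls to 582 and 563. Each line was also fitted alone, on all genes above 0 in it (13165 in U937 and 12570 in HL-60). U937 then gave 833 up and 917 down and HL-60 gave 1596 up and 1360 down, so the order of the lines by number of calls turned with the fit.

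The 3957 genes fell into classes by their calls in each line. There were 499 genes with opposite calls (12.6% of those called), 235 up in U937 and down in HL-60 and 264 down in U937 and up in HL-60. A call in U937 but not in HL-60 was made for 2139 genes, of which 1126 rose and 1013 fell. A call in HL-60 but not in U937 was made for 785 genes, of which 437 rose and 348 fell. A missed call does not show that a gene did not respond: the 95% confidence interval in the other line lay within a log2 value of 1 of zero for 1802 of the 2139 U937 genes and for 521 of the 785 HL-60 genes. In 25 genes both lines moved the same way to a different extent, and in 509 neither line was called on its own. The opposite classes were sensitive to single libraries. Without shRNF5_HL_60 replicate 3 they held 54 and 94 genes, without shRNF5_U937 replicate 1 they held 79 and 91, without pLKO_HL_60 replicate 1 they held 83 and 120, without pLKO_HL_60 replicate 3 they held 68 and 113, and without pLKO_U937 replicate 3 they held 400 and 388. No gene among the 3957 changed the sign of its difference in any of these refits.

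**Figure D1:**
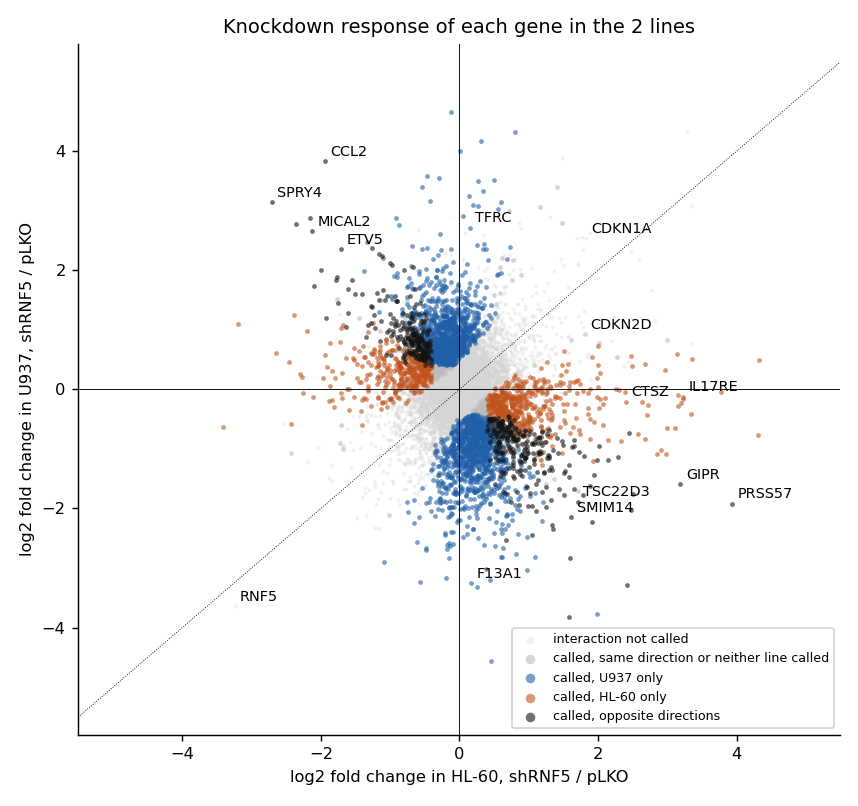
Log2 fold change (shRNF5 over pLKO) of each of the tested genes in HL-60 (horizontal) and U937 (vertical), 1 point per gene, coloured by class, with a dotted line of equal response. RNF5 lies near the line of equal response at the lower left, while SPRY4 and CCL2 lie at the upper left and PRSS57 and GIPR at the lower right.

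The opposite responses mostly began from unequal levels in the pLKO cells. Of the 235 genes up in U937 and down in HL-60, 35 had a higher mean in U937 than in HL-60 with pLKO, against 174 with shRNF5. Of the 264 genes with the reverse pattern, 249 were higher in U937 with pLKO and 116 with shRNF5. These counts compare levels set across separately normalized lines, and the pLKO values enter both the counts and the choice of genes. A measure that uses every tested gene was the Pearson correlation of log2(value + 1) between a U937 and an HL-60 library of the same construct. It ranged from 0.758 to 0.815 over the 6 pLKO pairs, with a mean of 0.788, and from 0.845 to 0.861 over the 6 shRNF5 pairs, with a mean of 0.851, so the ranges did not overlap. The difference of the means was 0.0633. This measure was chosen after its values were seen, its pairs share libraries and its genes include those called in the difference, so it is given as a description. Without pLKO_U937 replicate 2 the difference was 0.0396, and over the genes not called in the interaction it was 0.0246.

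**Figure D2:**
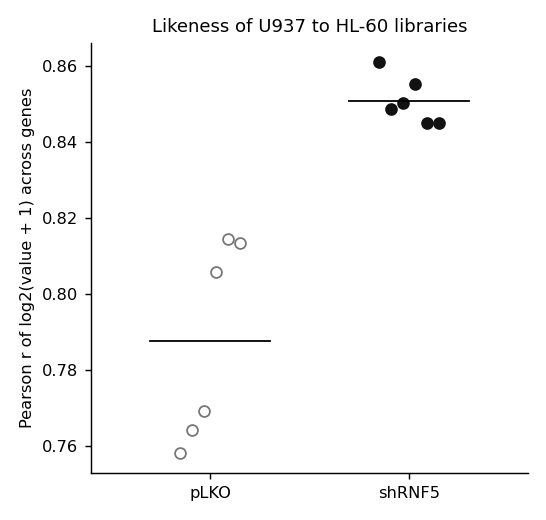
Pearson correlation across genes of log2(value + 1) between 1 U937 and 1 HL-60 library, for the 6 pLKO and the 6 shRNF5 pairs (points), with the mean as a line. All shRNF5 pairs lie above all pLKO pairs, and pairs share libraries.

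Among the genes that rose in U937 and fell in HL-60, the leading members included regulators of growth factor signalling. SPRY4 (chr5:141689992-141706020, GRCh37, as are the other gene positions), an inhibitor of receptor tyrosine kinase signalling that is itself induced by ERK, had values of 6 and 7 with pLKO and 77 and 55 with shRNF5 in U937 and 193, 249 and 184 with pLKO and 31, 71 and 13 with shRNF5 in HL-60. The log2 fold change was 3.14 ± 0.58 in U937 and -2.71 ± 0.47 in HL-60, and the difference of responses was 5.85 ± 0.74 (adjusted p = 0.00118). ETV5 (chr3:185764103-185828107), an ETS transcription factor that is also a known ERK-responsive gene, had 141 and 580 with pLKO and 1531 and 1401 with shRNF5 in U937 and 554, 551 and 536 with pLKO and 196, 243 and 97 with shRNF5 in HL-60. The difference of responses was 4.06 ± 0.66 (adjusted p = 0.00277), and its pLKO_U937 libraries differed from each other more than its shRNF5_U937 libraries did. CCL2 (chr17:32582293-32584227), a chemokine that attracts monocytes, had 75 and 193 with pLKO and 1819 and 1647 with shRNF5 in U937 and 526, 1023 and 1067 with pLKO and 136, 470 and 155 with shRNF5 in HL-60. All shRNF5_U937 libraries were above all pLKO_U937 libraries, all shRNF5_HL_60 libraries were below all pLKO_HL_60 libraries, and the difference of responses was 5.78 ± 0.70 (adjusted p = 0.00107). MICAL2 (chr11:12115555-12380691), a flavoprotein that oxidizes actin, had 84 and 97 with pLKO and 704 and 471 with shRNF5 in U937 and 125, 87 and 122 with pLKO and 27, 36 and 15 with shRNF5 in HL-60. The difference of responses was 4.78 ± 0.50 (adjusted p = 6.95e-04).

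The mitochondrially encoded MT-ND2 and MT-CYB, subunits of respiratory complexes I and III, followed the same pattern. MT-ND2 (chrM:4470-5511) had 11 and 51 with pLKO and 78 and 374 with shRNF5 in U937 and 491, 336 and 347 with pLKO and 111, 47 and 78 with shRNF5 in HL-60, and the difference of responses was 5.15 ± 0.91 (adjusted p = 0.00347). MT-CYB (chrM:14747-15887) had 7 and 19 with pLKO and 46 and 181 with shRNF5 in U937 and 481, 358 and 350 with pLKO and 145, 46 and 100 with shRNF5 in HL-60, and the difference of responses was 5.02 ± 0.81 (adjusted p = 0.00277). Of the 13 mitochondrial protein-coding genes, 11 were called higher in U937 and 7 were called opposite, while 17.5% of all genes were called higher. Their summed value was 1404 and 2321 in pLKO_U937, 2406 and 6141 in shRNF5_U937, 6956, 5198 and 5002 in pLKO_HL_60 and 2832, 1260 and 2073 in shRNF5_HL_60. As a share of all values in a library, mitochondrially encoded transcripts took 0.0189% and 0.0267% in pLKO_U937 and 0.0193% and 0.0497% in shRNF5_U937, which overlapped, so the rise of the share in U937 lay in shRNF5_U937 replicate 3. In HL-60 the share was 0.0370% to 0.0497% with pLKO and 0.0118% to 0.0225% with shRNF5, with no overlap. The share was at most 0.0497% in all 10 libraries, so these calls rest on a very small part of the values. The part of RNA quality, or of the alignment and counting of these reads, in this result was not tested.

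Genes that fell in U937 and rose in HL-60 included a granule protease, a hormone receptor and a collagen chain. PRSS57 (chr19:685546-695498), a serine protease of neutrophil granules, had 92 and 39 with pLKO and 12 and 19 with shRNF5 in U937 and 9, 23 and 6 with pLKO and 153, 150 and 260 with shRNF5 in HL-60. Its log2 fold change was -1.92 ± 0.59 in U937 and 3.94 ± 0.48 in HL-60, and the difference of responses was -5.86 ± 0.76 (adjusted p = 0.00118). TSC22D3 (chrX:106956451-107020572), the glucocorticoid-induced leucine zipper, had 4315 and 2032 with pLKO and 537 and 1190 with shRNF5 in U937 and 151, 131 and 177 with pLKO and 517, 351 and 682 with shRNF5 in HL-60, and the difference of responses was -3.60 ± 0.52 (adjusted p = 0.00193). GIPR (chr19:46171479-46186980), the receptor for the gut hormone GIP, had 280 and 178 with pLKO and 49 and 110 with shRNF5 in U937 and 13, 6 and 8 with pLKO and 80, 62 and 130 with shRNF5 in HL-60, and the difference of responses was -4.78 ± 0.64 (adjusted p = 0.00128). After knockdown the GIPR libraries of the 2 lines covered overlapping ranges, while with pLKO every U937 library was above every HL-60 library. COL9A3 (chr20:61447596-61472511), a collagen chain, had 689 and 346 with pLKO and 82 and 172 with shRNF5 in U937 and 5, 12 and 23 with pLKO and 72, 46 and 94 with shRNF5 in HL-60, and the difference of responses was -4.51 ± 0.77 (adjusted p = 0.00312). SMIM14 (chr4:39547956-39640522), a small membrane protein of the ER, had 2192 and 1161 with pLKO and 338 and 383 with shRNF5 in U937 and 68, 88 and 111 with pLKO and 291, 213 and 314 with shRNF5 in HL-60, and the difference of responses was -3.76 ± 0.41 (adjusted p = 8.64e-04). TMEM91 (chr19:41856816-41889988) had 297 and 231 with pLKO and 33 and 78 with shRNF5 in U937 and 19, 9 and 18 with pLKO and 26, 39 and 58 with shRNF5 in HL-60, and the difference of responses was -3.70 ± 0.66 (adjusted p = 0.0036). In all 6 genes the shRNF5 libraries were below the pLKO libraries in U937 and above them in HL-60.

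**Figure D3:**
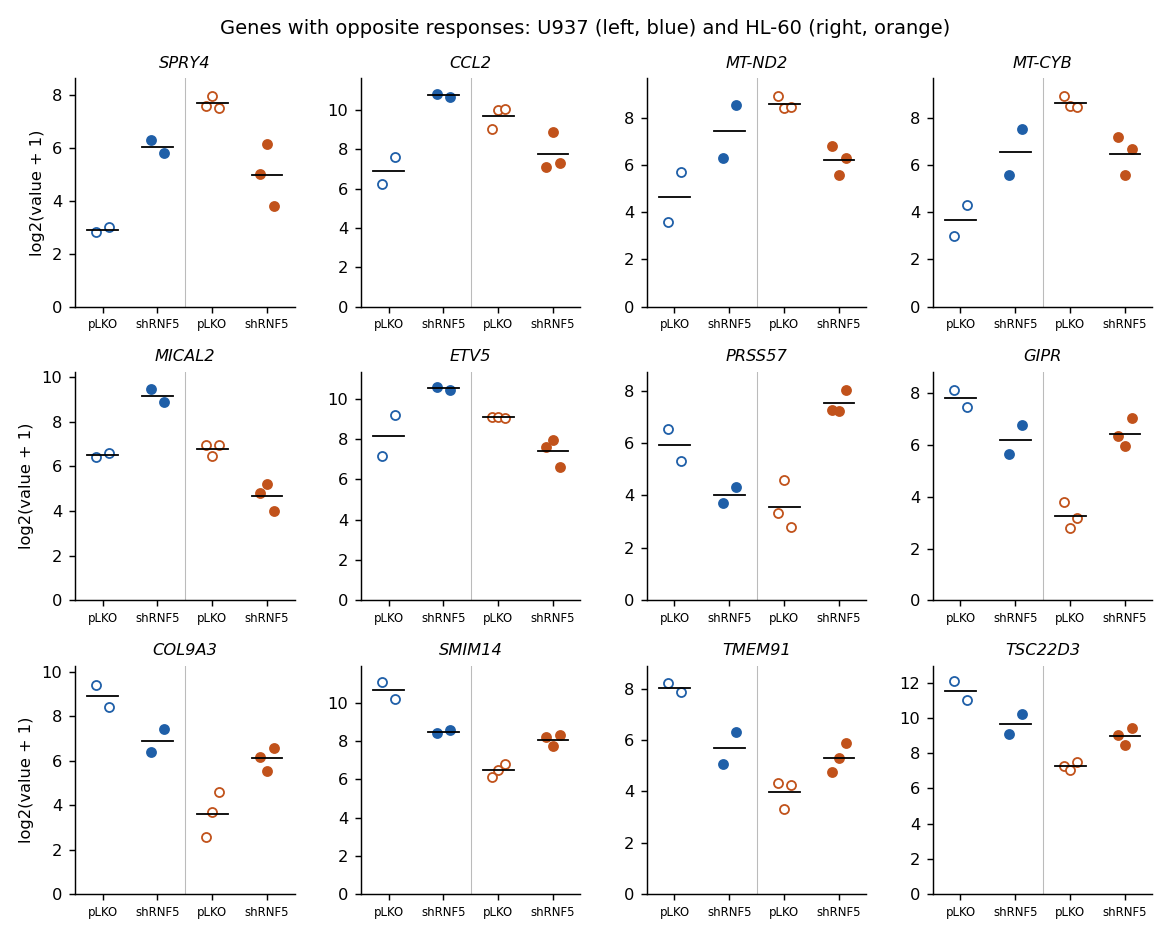
Values of 12 genes with opposite responses, as log2(value + 1) on the vertical axis, in each library (points) with the group mean (line), for pLKO (open) and shRNF5 (filled) in U937 (blue) and HL-60 (orange). In each panel the constructs do not overlap within either line, and the first 6 genes rise in U937 and fall in HL-60 while the last 6 do the reverse.

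Genes that rose in U937 with little movement in HL-60 included a gene of iron uptake. TFRC (chr3:195739382-195809024), the transferrin receptor that brings iron into proliferating cells, had 1400 and 2378 with pLKO and 15084 and 9536 with shRNF5 in U937. HL-60 had 34474, 25507 and 37927 with pLKO and 40822, 29044 and 38412 with shRNF5, with overlapping libraries and a log2 fold change of 0.15 ± 0.24 against 2.72 ± 0.30 in U937. For TFRC the difference of responses was 2.57 ± 0.39 (adjusted p = 0.00211). ZNF551 (chr19:58193337-58228669), a zinc finger protein, rose by 2.02 ± 0.29 in U937 and had -0.48 ± 0.24 in HL-60 (difference adjusted p = 0.00201). It was not called in HL-60, but all of its shRNF5_HL_60 libraries were below all of its pLKO_HL_60 libraries. LINC00680 (chr6:58285307-58287623), annotated as a transcribed pseudogene, rose by 2.34 ± 0.37 and had -0.27 ± 0.30 in HL-60 (difference adjusted p = 0.00387).

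Genes that fell in U937 with little movement in HL-60 were led by F13A1 (chr6:6144317-6321246), the A subunit of coagulation factor XIII and a known monocyte product. F13A1 had 366 and 208 with pLKO and 27 and 29 with shRNF5 in U937 and 107, 136 and 211 with pLKO and 143, 165 and 184 with shRNF5 in HL-60, and the difference of responses was -3.42 ± 0.46 (adjusted p = 0.00128). BARX1 (chr9:96713909-96717637), a homeobox transcription factor, had 1485 and 1182 with pLKO and 190 and 356 with shRNF5 in U937 and stayed between 16 and 28 in HL-60, and the difference of responses was -2.55 ± 0.48 (adjusted p = 0.00426). FBXO10 (chr9:37510889-37576377), an F-box subunit of a ubiquitin ligase, fell by 2.49 on the log2 scale in U937 and had 0.26 ± 0.31 in HL-60 (difference adjusted p = 0.00374). MROH6 (chr8:144648362-144654942), a gene of little known function, fell by 2.16 in U937 and had 0.42 ± 0.27 in HL-60 (difference adjusted p = 0.00277).

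In HL-60, the genes that rose while U937 moved little had been higher in U937 to begin with in 3 of the 4 leading cases. IL17RE (chr3:9944296-9958086), a receptor subunit for interleukin 17C, had 32, 46 and 38 with pLKO and 279, 355 and 499 with shRNF5 in HL-60 and 447 and 329 with pLKO and 331 and 374 with shRNF5 in U937, and the difference of responses was -3.35 ± 0.39 (adjusted p = 9.11e-04). CTSZ (chr20:57560741-57583293), the lysosomal protease cathepsin Z, had 164, 195 and 174 with pLKO and 941, 589 and 1512 with shRNF5 in HL-60 and 5695 and 4041 with pLKO and 5133 and 3352 with shRNF5 in U937, and the difference of responses was -2.62 ± 0.45 (adjusted p = 0.00312). SERPINB1 (chr6:2832566-2842193), the inhibitor of neutrophil elastase, had 383, 229 and 175 with pLKO and 1851, 670 and 1775 with shRNF5 in HL-60 and 5353 and 7054 with pLKO and 5566 and 6357 with shRNF5 in U937, and the difference of responses was -2.43 ± 0.55 (adjusted p = 0.00927). GSN (chr9:123970072-124095121), the actin-severing protein gelsolin, had 415, 491 and 461 with pLKO and 1691, 1601 and 2601 with shRNF5 in HL-60 and 575 and 337 with pLKO and 358 and 388 with shRNF5 in U937, and the difference of responses was -2.31 ± 0.35 (adjusted p = 0.00216). The shRNF5_HL_60 libraries were above the pLKO_HL_60 libraries in all 4 genes.

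Genes that fell in HL-60 with little movement in U937 had smaller differences than those above. PTPRU (chr1:29563028-29653325), a receptor tyrosine phosphatase, had 67, 105 and 93 with pLKO and 29, 13 and 32 with shRNF5 in HL-60 and 134 and 113 with pLKO and 128 and 128 with shRNF5 in U937, and the difference of responses was 1.93 ± 0.53 (adjusted p = 0.0212). PHACTR1 (chr6:12716544-13290678), an actin and phosphatase 1 binding protein, had 251, 207 and 231 with pLKO and 82, 88 and 76 with shRNF5 in HL-60 and 68 and 69 with pLKO and 89 and 69 with shRNF5 in U937, and the difference of responses was 1.66 ± 0.35 (adjusted p = 0.00644). SLC16A10 (chr6:111408706-111552397), an aromatic amino acid transporter, fell by 1.63 on the log2 scale in HL-60 and had 0.01 ± 0.26 in U937 (difference adjusted p = 0.00619). ZBED3 (chr5:76367897-76383110), an axin-binding protein, fell by 1.59 in HL-60 and had 0.00 ± 0.31 in U937 (difference adjusted p = 0.015).

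**Figure D4:**
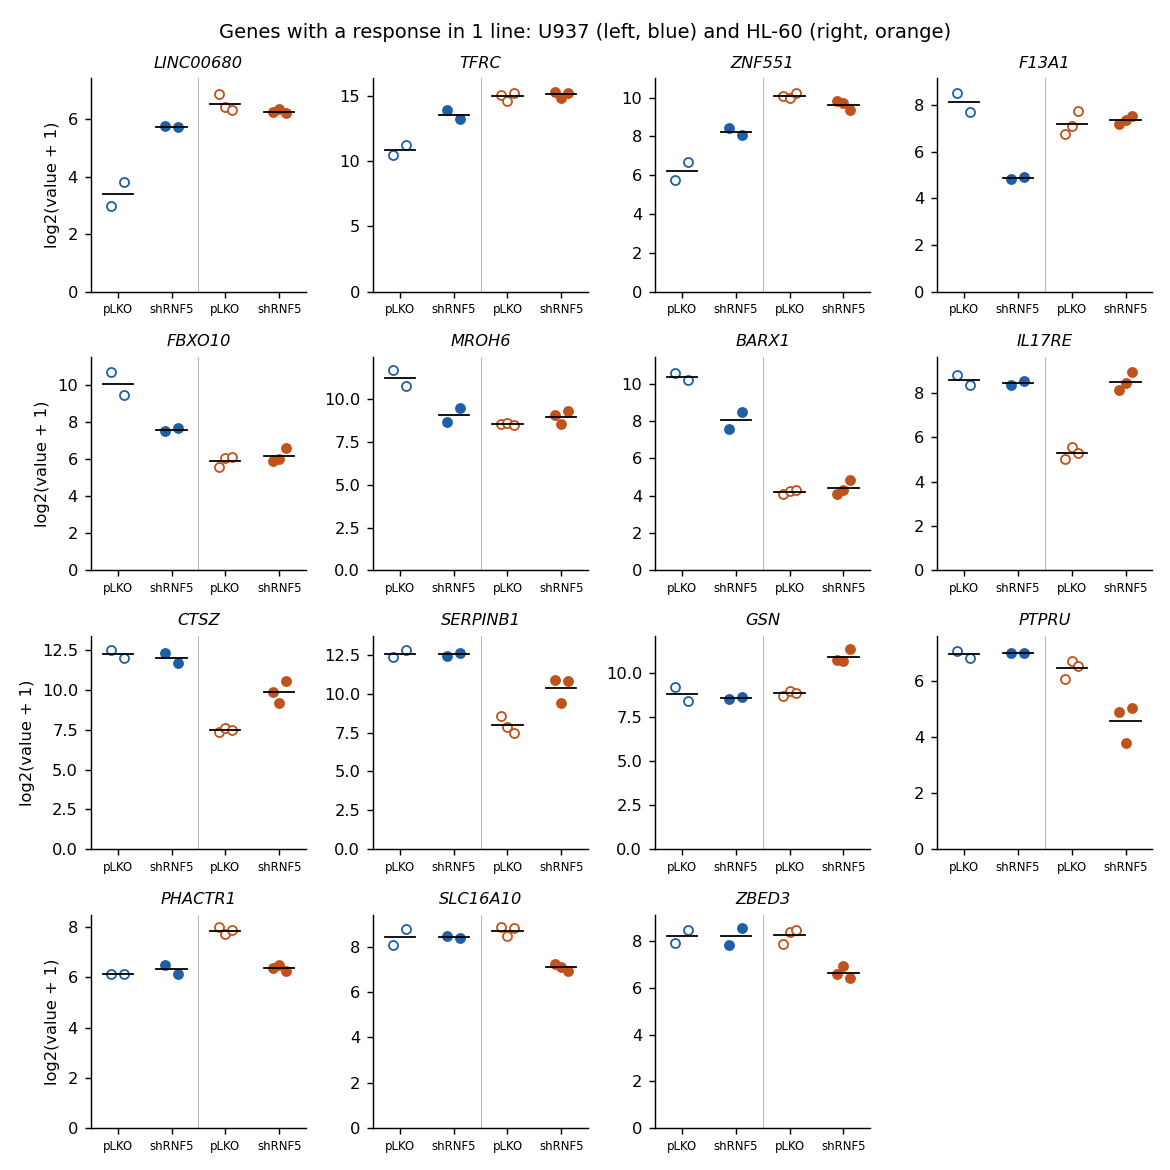
Values of 15 genes with a call in 1 line and a narrow interval in the other, as log2(value + 1) on the vertical axis, in each library (points) with the group mean (line), for pLKO (open) and shRNF5 (filled) in U937 (blue) and HL-60 (orange). The first 7 genes move in U937 and the last 8 in HL-60, and the constructs do not overlap in the line that moved.

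Most genes of DNA replication rose in U937, as did 21 of 42 mitosis genes. Replication genes are transcribed as cells leave G1, under the control of E2F factors that cyclin-dependent kinases release, and mitosis genes later in the cycle, under MuvB complexes and FOXM1. Of 40 genes of DNA replication, 29 rose and none fell in U937, while 3 rose and none fell in HL-60, and the difference was called higher in U937 in 20 and lower in 2. The median log2 fold change was 0.67 in U937 and -0.07 in HL-60. RRM2, the small subunit of ribonucleotide reductase, had 2730 and 5297 with pLKO and 20003 and 15298 with shRNF5 in U937 and 4729, 4646 and 5186 with pLKO and 8469, 6282 and 7705 with shRNF5 in HL-60, and the difference of responses was 1.59 ± 0.34 (adjusted p = 0.00763). MCM5, a subunit of the replicative helicase, had 1089 and 1666 with pLKO and 3267 and 2552 with shRNF5 in U937 and 3620, 4485 and 4021 with pLKO and 3369, 3464 and 3074 with shRNF5 in HL-60, and the difference of responses was 1.39 ± 0.27 (adjusted p = 0.00497). GINS3, which joins that helicase at the fork, and POLA1, the catalytic subunit of the priming polymerase, differed by 1.62 ± 0.44 (adjusted p = 0.0195) and 1.52 ± 0.32 (adjusted p = 0.00715). Of the 42 mitosis genes, 1 fell and 20 were not called in U937, 6 rose and none fell in HL-60, and the difference was called higher in 11 and lower in 4. The difference was called in 35.7% of the mitosis genes, near the 34.4% of all genes, and in 55% of the replication genes. MKI67, the proliferation marker Ki-67, had 4917 and 7226 with pLKO and 18595 and 17579 with shRNF5 in U937 and 15404, 9000 and 9800 with pLKO and 9672, 8994 and 5346 with shRNF5 in HL-60, and the difference of responses was 2.12 ± 0.40 (adjusted p = 0.00426). KIF11, a motor of the spindle, and NCAPH, a condensin subunit, differed by 0.98 ± 0.23 and 1.098 ± 0.25 (adjusted p = 0.0106 and 0.00939). PTTG1, the securin that holds separase inactive, went the other way, with -0.63 in U937 and 0.70 in HL-60 (difference adjusted p = 0.00666). The replication count was 8 without shRNF5_U937 replicate 1 and 32 without pLKO_U937 replicate 3, and the mitosis count was 5 and 18 in the same refits. The study reported that RNF5-KD slowed the growth of U937 cells and led more of them to gather in G1, with more p21 and p27 protein. Transcript levels do not measure proliferation, and how these rises relate to the slower growth was not tested.

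The regulators of G1 split between the lines. Of 15 cyclins, kinases and E2F genes of G1, the difference was called higher in U937 in 8 and lower in 1, with a median log2 fold change of 0.60 in U937 and 0.05 in HL-60. Without shRNF5_U937 replicate 1 these counts were 5 and 0. Over all genes, 17.5% were called higher and 16.9% lower in the difference, and 10.8% rose in HL-60. CCNE2, a cyclin that activates CDK2, had 184 and 311 with pLKO and 2526 and 1596 with shRNF5 in U937 and 152, 135 and 198 with pLKO and 476, 250 and 383 with shRNF5 in HL-60, so it rose in both lines, and the difference of responses was 1.91 ± 0.44 (adjusted p = 0.0101). CCND3, a D-type cyclin, also rose in both, by 2.18 ± 0.22 in U937 and 0.77 ± 0.18 in HL-60, and the difference of responses was 1.40 ± 0.29 (adjusted p = 0.00604). CCND1, the D-type cyclin that growth factor signalling induces, had 24 and 9 with pLKO and 61 and 31 with shRNF5 in U937 and 900, 880 and 858 with pLKO and 398, 483 and 313 with shRNF5 in HL-60, with opposite calls, and the difference of responses was 2.66 ± 0.52 (adjusted p = 0.00508). CCNE1 rose by 1.78 ± 0.36 in U937 and had -0.70 ± 0.30 in HL-60 (difference adjusted p = 0.00429). Of 7 CDK inhibitor genes, 6 rose in HL-60, and the difference was called lower in U937 in 6, with a median log2 fold change of -0.08 in U937 and 1.67 in HL-60. CDKN1C, which encodes p57, had 23, 21 and 27 with pLKO and 95, 154 and 237 with shRNF5 in HL-60 and 97 and 79 with pLKO and 64 and 88 with shRNF5 in U937, and the difference of responses was -2.85 ± 0.52 (adjusted p = 0.00382). CDKN2B, the INK4 inhibitor p15, had 25, 28 and 16 with pLKO and 65, 61 and 99 with shRNF5 in HL-60 and 171 and 142 with pLKO and 128 and 136 with shRNF5 in U937, and the difference of responses was -1.90 ± 0.47 (adjusted p = 0.0128). CDKN2C rose by 0.95 ± 0.17 in HL-60 and had -0.08 ± 0.21 in U937 (difference adjusted p = 0.0175). CDKN2A did not rise in HL-60 by this test, since it fell by 1.07 in U937 and had 0.12 ± 0.16 in HL-60 (difference adjusted p = 0.00723).

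MYC fell in HL-60, and genes of ribosome production differed between the lines. MYC is a transcription factor that drives ribosome biogenesis, and its binding site is the E-box. MYC had 21613, 29696 and 23014 with pLKO and 10002, 11565 and 8948 with shRNF5 in HL-60 and 2018 and 4450 with pLKO and 3906 and 4023 with shRNF5 in U937. Every shRNF5_HL_60 library was below every pLKO_HL_60 library, the pLKO_U937 values lay on both sides of the shRNF5_U937 values, and the difference of responses was 1.68 ± 0.38 (adjusted p = 0.00903). MXD3, a MAX partner that opposes MYC, had 818 and 568 with pLKO and 338 and 404 with shRNF5 in U937 and 280, 281 and 244 with pLKO and 586, 497 and 862 with shRNF5 in HL-60, opposite to each other, and the difference of responses was -2.12 ± 0.34 (adjusted p = 0.00277). Of 18 nucleolar factors, 10 rose and none fell in U937, 6 fell and none rose in HL-60, and the difference was called higher in U937 in 12 and lower in none. Their median log2 fold change was 0.63 in U937 and -0.32 in HL-60. Over all genes, 17.8% rose in U937 and 8.23% fell in HL-60, and the difference was called higher in 17.5% and lower in 16.9%. POLR1A, the largest subunit of RNA polymerase I, had 467 and 859 with pLKO and 2345 and 1503 with shRNF5 in U937 and 4721, 3188 and 4005 with pLKO and 2419, 2226 and 1639 with shRNF5 in HL-60, and the difference of responses was 2.49 ± 0.39 (adjusted p = 0.00249). UTP20, a component of the small-subunit processome, had 441 and 482 with pLKO and 1907 and 883 with shRNF5 in U937 and 4644, 2798 and 4133 with pLKO and 2515, 2100 and 1551 with shRNF5 in HL-60, and the difference of responses was 2.40 ± 0.43 (adjusted p = 0.0036). The count for MYC partners and nucleolar factors together, 13 of 26 higher, was 9 without pLKO_U937 replicate 2 and 15 without pLKO_U937 replicate 3.

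RefSeq promoters (250 bases before to 50 after the start, GRCh38.p14) were matched for 14 of the 18 nucleolar factors, and 5 of these (35.7%) held the E-box letters CACGTG, which read the same on both strands, against 2030 of all 27305 promoters searched (7.43%). The same letters were in 4 of the 19 matched promoters of cholesterol synthesis genes (21.1%), a list called lower in U937 more often than higher. The E-box was therefore not particular to the nucleolar factors. The 27305 promoters were not limited to the tested genes. The windows of the nucleolar factors are shown because that list moved apart between the lines, and the E-box is in capitals.
UTP20 (chr12:101280070-101280125, plus strand): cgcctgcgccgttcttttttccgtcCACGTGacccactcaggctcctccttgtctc
NOP2 (chr12:6568242-6568281, minus strand): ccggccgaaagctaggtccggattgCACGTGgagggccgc
RRP9 (chr3:51941879-51941934, minus strand): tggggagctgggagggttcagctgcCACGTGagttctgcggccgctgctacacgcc
PES1 (chr22:30591867-30591922, minus strand): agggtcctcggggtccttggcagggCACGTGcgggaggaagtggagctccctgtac
FBL (chr19:39846343-39846398, minus strand): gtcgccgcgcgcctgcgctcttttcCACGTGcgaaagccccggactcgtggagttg
The 5 genes did not share a response. UTP20 and NOP2, a nucleolar RNA methyltransferase, were called opposite, with differences of 2.40 and 1.04. RRP9, a component of the U3 particle, was called in the difference only (0.83, adjusted p = 0.0575). PES1, needed for the large subunit, and FBL, the methyltransferase fibrillarin, were not called (0.59 and 0.06, adjusted p = 0.134 and 0.906). A match of letters is not a bound site.

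Genes induced by ERK and stress kinases were called higher in U937 more often than lower. Of 21 AP-1 subunits, immediate early genes and their inhibitors, 10 rose and none fell in U937, and 4 rose and 4 fell in HL-60. The difference was called higher in U937 in 7 and lower in 1. It was called in 38.1% of the list, not far from the 34.4% of all genes, of which 17.5% were higher and 16.9% lower. EGR1, given below from another list, is not among the 21. SPRY4, already named for its large difference, belongs to this list and was 1 of the 7. FOSL1, an AP-1 subunit, had 19 and 63 with pLKO and 315 and 292 with shRNF5 in U937 and 49, 70 and 28 with pLKO and 74, 57 and 35 with shRNF5 in HL-60, and the difference of responses was 2.89 ± 0.71 (adjusted p = 0.0126). DUSP6, a phosphatase of ERK, had 203 and 541 with pLKO and 1247 and 1297 with shRNF5 in U937 and 1122, 1595 and 1386 with pLKO and 822, 1414 and 638 with shRNF5 in HL-60, and the difference of responses was 2.52 ± 0.52 (adjusted p = 0.00619). DUSP5, a nuclear ERK phosphatase, rose by 1.53 ± 0.29 in U937 and had -0.30 ± 0.24 in HL-60 (difference adjusted p = 0.00617). EGR1, an immediate early transcription factor held in the monocyte list, had 15 and 11 with pLKO and 84 and 35 with shRNF5 in U937 and 69, 76 and 68 with pLKO and 21, 23 and 10 with shRNF5 in HL-60, and the difference of responses was 3.997 ± 0.65 (adjusted p = 0.00277). Of 22 NF-kappaB subunits and targets, 5 were called higher in U937 and 3 lower, near the 17.5% and 16.9% of all genes, and these counts were as low as 3 without pLKO_HL_60 replicate 1 and 1 without pLKO_U937 replicate 2. IL8, a neutrophil chemokine, had 112 and 82 with pLKO and 1110 and 451 with shRNF5 in U937 and 409, 247 and 301 with pLKO and 230, 182 and 107 with shRNF5 in HL-60, and the difference of responses was 3.79 ± 0.55 (adjusted p = 0.00193). TNF, an inflammatory cytokine, had 18 and 16 with pLKO and 229 and 113 with shRNF5 in U937 and 138, 342 and 175 with pLKO and 92, 282 and 130 with shRNF5 in HL-60, and the difference of responses was 3.60 ± 0.68 (adjusted p = 0.00426). PLAU, the urokinase protease, fell in U937 by 1.48 and had 0.15 ± 0.36 in HL-60 (difference adjusted p = 0.0518).

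Most cholesterol synthesis genes fell in U937. These enzymes are induced together by SREBP2 when ER membrane sterol is low. Of 25 genes, 18 fell and 1 rose in U937, 5 fell and 1 rose in HL-60, and the difference was called lower in U937 in 15 and higher in 1. The median log2 fold change was -1.05 in U937 and -0.08 in HL-60. Over all genes, 15.8% fell in U937 and 8.23% in HL-60, and the difference was called lower in 16.9% and higher in 17.5%. MVD, which makes isopentenyl diphosphate, had 2930 and 2179 with pLKO and 496 and 809 with shRNF5 in U937 and 287, 407 and 352 with pLKO and 383, 314 and 597 with shRNF5 in HL-60, and the difference of responses was -2.26 ± 0.40 (adjusted p = 0.00356). MSMO1, a sterol demethylase, had 6394 and 3917 with pLKO and 1233 and 1596 with shRNF5 in U937 and 1913, 2306 and 2738 with pLKO and 3167, 2240 and 3756 with shRNF5 in HL-60, and the difference of responses was -2.21 ± 0.36 (adjusted p = 0.00277). STARD4, a cholesterol transfer protein, had 5125 and 3155 with pLKO and 752 and 1394 with shRNF5 in U937 and 1386, 1354 and 1737 with pLKO and 1502, 1205 and 1424 with shRNF5 in HL-60, and the difference of responses was -1.86 ± 0.37 (adjusted p = 0.00498). TM7SF2, a sterol reductase, differed by -1.56 ± 0.56 (adjusted p = 0.057). Of the controlling genes, SREBF2, which encodes SREBP2, had -0.65 in U937 and 0.19 in HL-60, and its retention factors INSIG1 and INSIG2 had -1.25 in U937 and -0.08 in HL-60 and -1.05 in U937 and 0.16 in HL-60, all 3 called in the difference, while SCAP had -0.07 in U937 and 0.07 in HL-60 and was not. DHCR7, a sterol reductase, fell in both lines (-1.003 in U937 and -1.03 in HL-60) and was not called in the difference. HMGCS1, the first committed enzyme, fell in both lines, with log2 fold changes of -2.11 in U937 and -1.01 in HL-60. The count of 15 was 10 without shRNF5_U937 replicate 1 and 17 without pLKO_U937 replicate 3. Promoters were matched for 19 of the 25 genes, and 1 of them, SREBF2, held the sterol element core TCACNCCAC on either strand, against 313 of all 27305 promoters searched (1.15%).
SREBF2 (chr22:41832947-41833005, plus strand, match in capitals): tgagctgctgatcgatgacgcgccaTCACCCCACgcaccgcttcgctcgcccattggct

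Of 12 fatty acid synthesis genes, 5 fell in HL-60 and 3 fell in U937, while over all genes 8.23% fell in HL-60 and 15.8% in U937. The difference was called in 33.3% of these genes, near the 34.4% of all genes, of which 17.5% were higher and 16.9% lower. ACSS2, which makes acetyl-CoA from acetate, had 5167 and 2517 with pLKO and 462 and 693 with shRNF5 in U937 and 242, 298 and 364 with pLKO and 504, 354 and 540 with shRNF5 in HL-60, and the difference of responses was -3.29 ± 0.43 (adjusted p = 0.00118). ACLY, which makes acetyl-CoA from citrate, had -0.16 in U937 and -1.02 in HL-60 (difference adjusted p = 0.0228). ACACA, the first enzyme of fatty acid synthesis, and ELOVL1, an elongase, differed by 0.70 ± 0.26 and 0.55 ± 0.22 (adjusted p = 0.0674 and 0.0795). Of 7 cholesterol efflux and LXR genes, 1 was called higher and 2 lower, namely LPCAT3, a phospholipid acyltransferase (1.38), NR1H3, the receptor LXR alpha (-1.54), and NPC2, a lysosomal cholesterol carrier (-1.099). The 2 lower calls were 0 without shRNF5_U937 replicate 1, and the higher call was lost without pLKO_U937 replicate 2.

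Genes of the primary granules rose in HL-60 in 8 of 12 cases and fell in U937 in 5. The summed myeloid markers given above include ELANE, CTSG, AZU1, PRTN3 and MPO of this list, so their move is not a separate result. The granule proteases and cationic proteins are made by promyelocytes and early monocytes. Of 12 genes, 8 rose and none fell in HL-60, 5 fell and 2 rose in U937, and the difference was called lower in U937 in 7, of which 4 were opposite. The median log2 fold change was -0.47 in U937 and 1.21 in HL-60. Over all genes, 10.8% rose in HL-60 and 15.8% fell in U937, and the difference was called lower in 16.9%. ELANE, neutrophil elastase, had 9166 and 11149 with pLKO and 5780 and 4077 with shRNF5 in U937 and 4017, 5305 and 4059 with pLKO and 15330, 10651 and 19378 with shRNF5 in HL-60, and the difference of responses was -2.79 ± 0.35 (adjusted p = 0.00113). CTSG, cathepsin G, had 30047 and 18105 with pLKO and 12769 and 8277 with shRNF5 in U937 and 1046, 1081 and 611 with pLKO and 2989, 2553 and 5731 with shRNF5 in HL-60, and the difference of responses was -3.17 ± 0.49 (adjusted p = 0.00241). AZU1, azurocidin, had 12516 and 13539 with pLKO and 1749 and 3267 with shRNF5 in U937 and 2115, 1961 and 1668 with pLKO and 4495, 2391 and 5688 with shRNF5 in HL-60, and the difference of responses was -3.49 ± 0.45 (adjusted p = 0.00118). PRTN3, proteinase 3, had -1.04 in U937 and 1.16 in HL-60 (difference adjusted p = 0.00558). CFD, complement factor D, had 490, 1254 and 996 with pLKO and 4476, 5256 and 13034 with shRNF5 in HL-60 and 2641 and 1051 with pLKO and 958 and 639 with shRNF5 in U937, and the difference of responses was -4.08 ± 0.69 (adjusted p = 0.00301). MPO, the myeloperoxidase that defines these granules, had 0.65 in U937 and 0.60 in HL-60 and was called in neither line. Leaving out any 1 library gave between 7 and 9 genes called lower.

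The lysosome list leaned the same way. Of 39 genes, 14 rose and 1 fell in HL-60, 7 rose and 5 fell in U937, and the difference was called lower in U937 in 14 and higher in 4, the latter being 2 without shRNF5_U937 replicate 1. Over all genes, 16.9% were called lower and 17.5% higher. CTSD, cathepsin D, had 54045 and 26280 with pLKO and 23797 and 17992 with shRNF5 in U937 and 1215, 1106 and 835 with pLKO and 2809, 2234 and 3912 with shRNF5 in HL-60, and the difference of responses was -2.35 ± 0.42 (adjusted p = 0.0036). SMPD1, acid sphingomyelinase, rose by 2.10 ± 0.37 in HL-60 and had -0.14 ± 0.45 in U937 (difference adjusted p = 0.0162), and GAA, acid glucosidase, had -1.199 in U937 and 0.64 in HL-60 (adjusted p = 0.0109). Of 21 monocyte and macrophage genes, 5 were called higher and 4 lower, not far from the 17.5% and 16.9% of all genes. CCR1, a chemokine receptor, had 139 and 92 with pLKO and 323 and 451 with shRNF5 in U937 and 251, 271 and 290 with pLKO and 231, 206 and 164 with shRNF5 in HL-60, and the difference of responses was 2.19 ± 0.35 (adjusted p = 0.00277). CCR2, the receptor for CCL2, stayed at or under 34 in every library and differed by 3.25 ± 0.83 (adjusted p = 0.0154). S100A9, a subunit of calprotectin, rose in both lines, with 31 and 71 with pLKO and 458 and 557 with shRNF5 in U937 and 154, 47 and 64 with pLKO and 246, 105 and 348 with shRNF5 in HL-60, and the difference of responses was 1.99 ± 0.76 (adjusted p = 0.0725). Of 7 NADPH oxidase genes, CYBB, the catalytic subunit, and RAC2, its GTPase, were higher in U937 (1.82 and 0.93), and CYBA, its membrane partner, and NCF4, a cytosolic subunit, were lower (-1.16 and -0.95). Among 11 integrin and adhesion genes 1 was called, CD44, the hyaluronan receptor, which had 7, 2 and 6 with pLKO and 80, 71 and 21 with shRNF5 in HL-60 and 3544 and 2993 with pLKO and 2915 and 2673 with shRNF5 in U937, and the difference of responses was -3.42 ± 0.72 (adjusted p = 0.00689). ITGA4, an integrin subunit, had -0.13 in U937 and -0.20 in HL-60 and was not called. Of 15 annexins, S100 proteins and galectins, 3 were called higher and 3 lower, near the shares of all genes, with 5 higher without pLKO_U937 replicate 3. S100A4, a calcium-binding protein of motile cells, had 1093, 1757 and 1204 with pLKO and 3974, 4456 and 8390 with shRNF5 in HL-60 and 5740 and 7498 with pLKO and 6697 and 6848 with shRNF5 in U937, and the difference of responses was -1.96 ± 0.40 (adjusted p = 0.00619), while LGALS1, galectin 1, and S100A6 differed by -1.72 and -1.23.

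**Figure D5:**
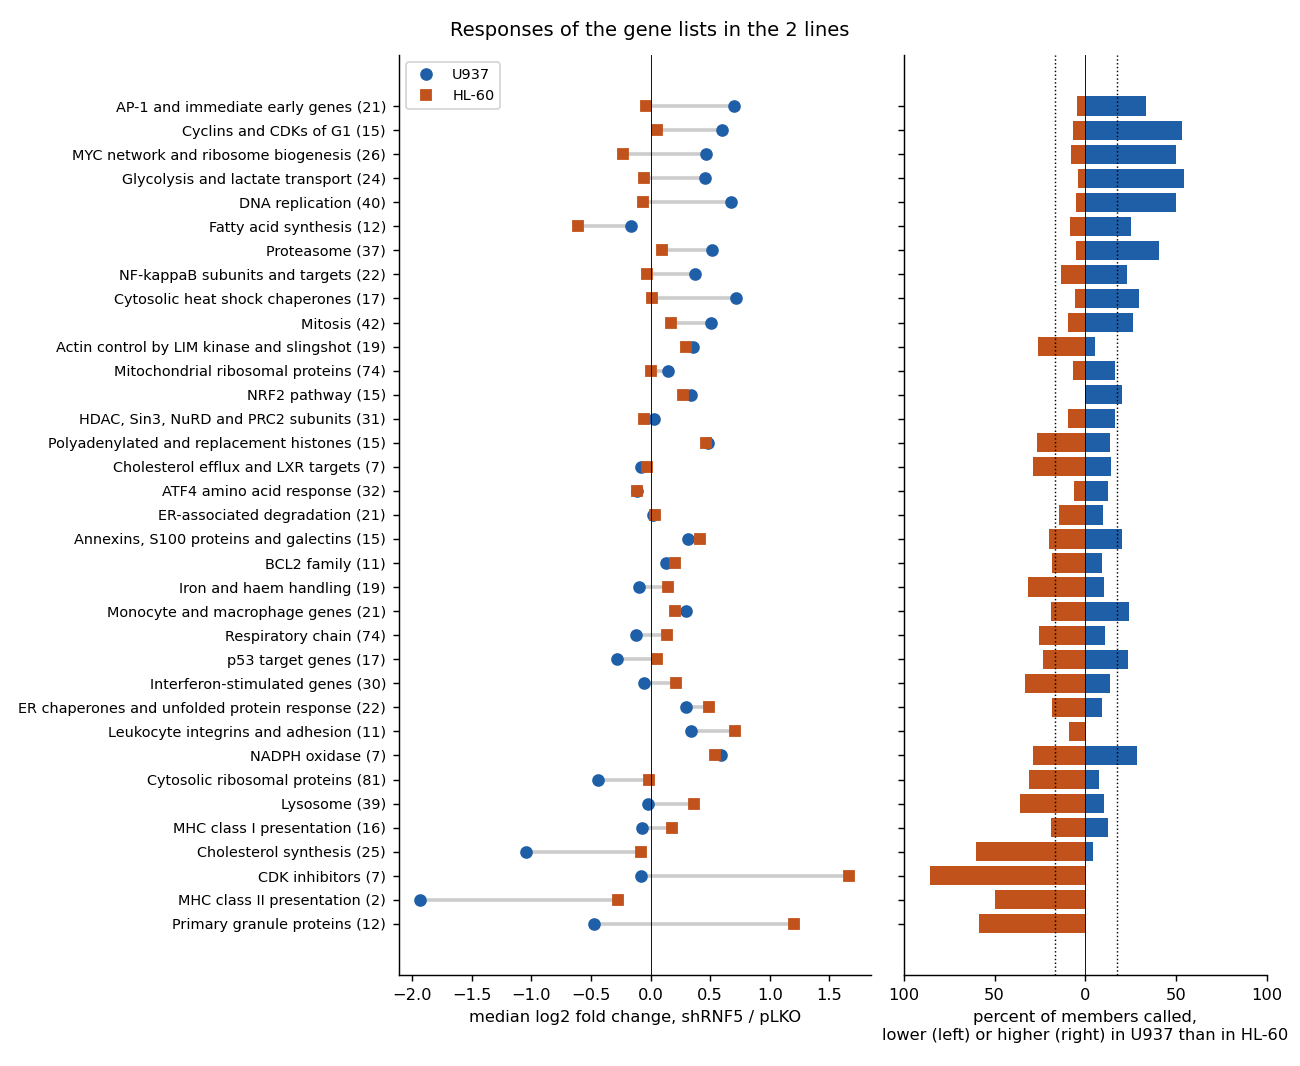
Left, median log2 fold change over the tested members of each list (number in brackets) in U937 (circles) and HL-60 (squares). Right, percent of members whose difference was called higher (to the right) or lower (to the left) in U937, with dotted lines at the 17.5% and 16.9% of all tested genes. Primary granule proteins, CDK inhibitors and cholesterol synthesis lie at the lower end, and AP-1, G1, nucleolar, glycolysis and replication lists at the upper end.

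Interferon-stimulated genes were called lower in U937 more often than higher. Of 30 interferon-stimulated genes, 10 were called lower in U937 and 4 higher, against 16.9% and 17.5% of all genes, and all 4 of the signalling genes called were lower. STAT2, which carries the interferon signal to the nucleus, had 2943 and 1810 with pLKO and 839 and 1019 with shRNF5 in U937 and 546, 559 and 520 with pLKO and 917, 860 and 1007 with shRNF5 in HL-60, with opposite calls, and the difference of responses was -2.09 ± 0.28 (adjusted p = 0.00128). IFI6, an interferon-induced membrane protein, fell by 1.66 in U937 and had 0.94 ± 0.35 in HL-60 (difference adjusted p = 0.00747). IRF7, a factor for type I interferon genes, and SOCS1, a feedback inhibitor, differed by -2.13 ± 0.67 and -2.26 ± 0.78 (adjusted p = 0.0362 and 0.0495). The count of 10 was 6 without pLKO_HL_60 replicate 3. Of 16 genes of MHC class I presentation, 3 were lower, the heavy chains HLA-B, HLA-C and HLA-E (-1.41, -1.76 and -1.13), and 2 were higher, including the peptide transporter subunit TAP2 (1.59). These counts lie near the shares of all genes, and the 3 were 6 without shRNF5_HL_60 replicate 2 and 5 corrected for length and GC. HLA heavy chains are near-identical in parts, so their reads may be split between genes. Of 2 class II genes tested, HLA-DMA, which loads peptides, had 184 and 61 with pLKO and 9 and 29 with shRNF5 in U937 and 30, 54 and 34 with pLKO and 28, 34 and 44 with shRNF5 in HL-60, and the difference of responses was -2.500 ± 0.76 (adjusted p = 0.0317). CD74, the invariant chain, had -1.23 in U937 and -0.42 in HL-60 and was not called.

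Genes of protein handling and glycolysis had higher medians in U937. Of 37 proteasome subunits, 19 rose and 1 fell in U937, 1 rose and 2 fell in HL-60, and the difference was called higher in 15 and lower in 2, with medians of 0.52 and 0.09. PSMD3, a regulatory subunit, had 1169 and 1265 with pLKO and 2631 and 2240 with shRNF5 in U937 and 3298, 3627 and 2803 with pLKO and 2350, 2505 and 2704 with shRNF5 in HL-60, and the difference of responses was 1.35 ± 0.22 (adjusted p = 0.00291). PSMD8, PSMB2 and PSMB7, other subunits, differed by 1.21, 1.17 and 1.17. The count was 9 without pLKO_U937 replicate 2. Of 17 cytosolic heat shock genes, 8 rose in U937 and the difference was called higher in 5 and lower in 1. The difference was called in 35.3% of the heat shock genes, near the 34.4% of all genes. It was called in 46% of the proteasome subunits and 58.3% of the genes of glycolysis and lactate transport. Over all genes, 17.8% rose in U937, and the difference was called higher in 17.5% and lower in 16.9%. HSPA8, the constitutive HSP70, had 6091 and 9797 with pLKO and 37758 and 25535 with shRNF5 in U937 and 45496, 52692 and 42299 with pLKO and 34956, 42972 and 34557 with shRNF5 in HL-60, and the difference of responses was 2.33 ± 0.34 (adjusted p = 0.00193). STIP1, which links HSP70 to HSP90, and HSPH1, an exchange factor, differed by 1.69 and 1.37, and DNAJB4, a cochaperone, by -1.43. Of 24 genes of glycolysis and lactate transport, 13 were called higher and 1 lower, with medians of 0.46 in U937 and -0.05 in HL-60. SLC2A1, the glucose transporter GLUT1, had 363 and 436 with pLKO and 1617 and 1142 with shRNF5 in U937 and 995, 1242 and 974 with pLKO and 1091, 924 and 1154 with shRNF5 in HL-60, and the difference of responses was 1.79 ± 0.28 (adjusted p = 0.00241). LDHA, lactate dehydrogenase, had 0.98 in U937 and -0.43 in HL-60, PFKM, a phosphofructokinase, had 0.12 in U937 and -1.45 in HL-60, and SLC2A3, a glucose transporter, had 0.60 in U937 and -1.04 in HL-60 (difference adjusted p = 0.00513, 0.012 and 0.0826). The glycolysis count was 4 without shRNF5_U937 replicate 1.

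RNF5 acts in the ER, and the ER lists held calls at or below the background share of 34.4%. Of 21 genes of ER-associated degradation, 2 were called higher and 3 lower. RNF185, the closest relative of RNF5, had 227 and 247 with pLKO and 397 and 439 with shRNF5 in U937 and 345, 359 and 361 with pLKO and 280, 345 and 297 with shRNF5 in HL-60, and the difference of responses was 1.03 ± 0.26 (adjusted p = 0.0142). OS9, a lectin that delivers misfolded glycoproteins, had -0.62 in U937 and 0.76 in HL-60, SYVN1, the ligase HRD1, had -0.56 in U937 and 0.42 in HL-60, and HERPUD1, its partner, had -0.26 in U937 and 0.64 in HL-60 (difference adjusted p = 0.00787, 0.015 and 0.0415). Of 22 ER chaperones and unfolded protein response genes, 8 rose in HL-60 and 3 rose in U937, and the difference was called higher in 2 and lower in 4. The count of 4 was 2 without pLKO_U937 replicate 2 and 9 without pLKO_U937 replicate 3, which is above the background share. CRELD2, a chaperone induced by ER stress, had 366, 390 and 347 with pLKO and 936, 870 and 1652 with shRNF5 in HL-60 and 520 and 638 with pLKO and 744 and 443 with shRNF5 in U937, and the difference of responses was -1.59 ± 0.39 (adjusted p = 0.0128). ERN1, the sensor IRE1, had -1.45 in U937 and -0.11 in HL-60, and the oxidases ERO1LB and ERO1L moved apart, with -2.14 in U937 and -0.16 in HL-60 for ERO1LB and 0.36 in U937 and -1.05 in HL-60 for ERO1L. Of 32 genes of the ATF4 amino acid response, 4 were higher and 2 lower, and the 2 were 6 without pLKO_U937 replicate 3 while the 4 were 2 without shRNF5_U937 replicate 1. SLC7A5, an amino acid transporter, had 1922 and 2913 with pLKO and 6586 and 5820 with shRNF5 in U937 and 3870, 4005 and 3418 with pLKO and 1484, 1787 and 1439 with shRNF5 in HL-60, and the difference of responses was 2.65 ± 0.26 (adjusted p = 4.68e-04). SLC7A1, an arginine transporter, DDIT3, the stress factor CHOP, and ATF3, a stress-induced factor, differed by 1.201, -1.50 and 1.21. Of 15 NRF2 pathway genes, 3 were higher and none lower, including TXNRD1, thioredoxin reductase (0.91), and PRDX1, a peroxiredoxin (0.72).

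In the cytosolic ribosomal protein and respiratory chain lists, more members were called lower than higher in U937, against 16.9% lower and 17.5% higher over all genes. Of 81 cytosolic ribosomal protein genes, 26 fell and 1 rose in U937, 4 rose and 2 fell in HL-60, and the difference was called lower in 25 and higher in 6, with a median of -0.44 in U937. RPS3A had 6925 and 7160 with pLKO and 3985 and 3189 with shRNF5 in U937 and 8574, 11361 and 11883 with pLKO and 13835, 15594 and 23629 with shRNF5 in HL-60, and the difference of responses was -1.70 ± 0.32 (adjusted p = 0.00445). RPL39, RPL41 and RPL13A differed by -2.11, -1.67 and -1.65, and all 4 have processed pseudogenes that can share reads. The count of 25 was 15 without shRNF5_U937 replicate 3, while the count of 6 was 0 without pLKO_U937 replicate 2, 14 without pLKO_U937 replicate 3 and 12 corrected for length and GC. Of 74 mitochondrial ribosomal proteins, 12 were higher, a share near that of all genes, and 5 were lower, led by MRPS36 (62 and 130 with pLKO and 259 and 506 with shRNF5 in U937 and 618, 666 and 575 with pLKO and 386, 323 and 361 with shRNF5 in HL-60, difference 2.79 ± 0.44, adjusted p = 0.00253). MRPS5, MRPS11 and MRPL35 differed by -1.12, 1.03 and 1.01, and the count of 12 was 4 without pLKO_U937 replicate 2, 28 without pLKO_U937 replicate 3 and 23 corrected for transcript length and GC, while the count of 5 was 1 without pLKO_HL_60 replicate 3. Of 74 nuclear respiratory chain genes, 19 were lower and 8 higher, with 12 of 36 complex I genes lower. The count of 8 was 3 without pLKO_U937 replicate 2, 14 without pLKO_U937 replicate 3 and 13 corrected for length and GC, and the count of 19 ranged from 13 to 23 when 1 library was left out. NDUFB5, a complex I subunit, had 1977 and 1887 with pLKO and 1117 and 1171 with shRNF5 in U937 and 1890, 1862 and 2307 with pLKO and 3475, 3164 and 4584 with shRNF5 in HL-60, and the difference of responses was -1.63 ± 0.25 (adjusted p = 0.00223). NDUFC2, of complex I, and COX6C, of complex IV, differed by -1.68 and -1.54, and ATP5J2, of the ATP synthase, by 2.29.

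The remaining lists had calls in both directions, against 17.5% higher and 16.9% lower over all genes. Of 31 subunits of deacetylase and Polycomb complexes, 5 were higher and 3 lower, with HDAC6, a cytoplasmic deacetylase, at -1.29 in U937 and 0.41 in HL-60, HDAC5 at -0.68 in U937 and 0.94 in HL-60, HDAC10 at -1.60 in U937 and -0.12 in HL-60 and SAP130, a Sin3 subunit, at 0.91 in U937 and -0.55 in HL-60. Of 17 p53 target genes, 4 were higher and 4 lower. BBC3, the proapoptotic PUMA, had 834 and 292 with pLKO and 98 and 153 with shRNF5 in U937 and 26, 48 and 31 with pLKO and 48, 64 and 74 with shRNF5 in HL-60, and the difference of responses was -2.83 ± 0.60 (adjusted p = 0.00691). GADD45A, a DNA damage gene, had -1.99 in U937 and 0.05 in HL-60, AEN, a nuclease, had 1.81 in U937 and -0.41 in HL-60, and PLK3, a kinase, had 0.73 in U937 and -0.55 in HL-60. The count of 4 higher was 1 without shRNF5_U937 replicate 1. Of 11 BCL2 family genes, BCL2 was higher (0.31 in U937 and -0.72 in HL-60), and BMF and BCL2L2 were lower (-1.14 and -0.77), and neither was without pLKO_U937 replicate 2. Of 19 genes of actin control, 5 were lower and 1 higher. CAPG, an actin-capping protein, had 20504 and 11219 with pLKO and 8723 and 8452 with shRNF5 in U937 and 747, 764 and 629 with pLKO and 1832, 1750 and 2110 with shRNF5 in HL-60, and the difference of responses was -2.23 ± 0.31 (adjusted p = 0.00134), while TWF2, twinfilin, and CAP1, which recycles cofilin, differed by -1.59 and 1.38. Of 19 genes of iron and haem handling, 6 were lower and 2 higher, the latter including TFRC, with BLVRB, PPOX and ALAD, enzymes of haem metabolism, at -1.93, -1.29 and -1.09. The count of 6 was 2 without shRNF5_U937 replicate 1. Of 15 polyadenylated and replacement histones, 4 were lower and 2 higher (1 lower without shRNF5_U937 replicate 1 and 5 higher without pLKO_U937 replicate 3), with HIST2H2BE at -2.11, HIST1H4H at -1.53, HIST3H2A at -1.32 and H3F3A at 1.69.

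MOLM-13, whose libraries entered none of the classes, was read for the same genes. In MOLM-13 alone, 98 genes (0.885%) rose and 110 (0.993%) fell among 11072 of the tested genes. Of the 229 measured genes that were up in U937 and down in HL-60, 141 (61.6%) had the sign of U937 in MOLM-13, and 1 was called in each direction. Of the 254 with the reverse pattern, 150 (59.1%) had the sign of U937, with 2 called in that direction and 1 in the other. Over all 11072 genes, 56.8% had the same sign in MOLM-13 as in U937 and 49.6% as in HL-60.

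Some genes were listed above 0 in 1 line only and have no difference to test, which does not show that the other line lacks them. In U937, 1647 genes were above 0 while listed at 0 in all HL-60 libraries, and with U937 fitted alone 78 of them rose and 234 fell. In HL-60, 1052 genes were above 0 while listed at 0 in all U937 libraries, and 108 of them rose and 187 fell with HL-60 fitted alone. The genes named here were chosen after their values were seen, and no fold against the other line is given. MMP1, a collagenase, rose in U937 from 92 and 293 with pLKO to 2536 and 1309 with shRNF5. TGM3, a transglutaminase, rose from 9 and 18 to 229 and 195. PDYN, the precursor of dynorphins, fell from 522 and 656 to 27 and 45, and CIITA, the activator of MHC class II genes, fell from 126 and 73 to 3 and 7. In each of these the U937 libraries of the constructs did not overlap. LGALS3BP, a secreted galectin-binding protein, rose in HL-60 from 69, 166 and 140 to 507, 852 and 989, and FBP1, a gluconeogenic phosphatase, rose from 29, 25 and 16 to 224, 74 and 217. PLCH1, a phospholipase, fell in HL-60 from 290, 272 and 283 to 37, 25 and 31, again with no overlap of libraries.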

How the data were processed

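RNA sequencing of U937 and HL-60 cells with pLKO or shRNF5 was read from the authors' deposited tables, 1 per library. Per the labels and the study's methods, the authors used CUTADAPT for trimming and STAR for alignment to hg19 (GRCh37). Reads were assigned to genes by featureCounts (Subread), and the authors used edgeR in SARTools for the normalization. The labels name a 3' tag kit and the study's methods a directional poly(A) kit, so which applied is not known. The deposited values are normalized read counts that the authors rounded to whole numbers, treated here as a score and not as raw counts, and each line was normalized separately. Genes that failed the authors' filter on low counts are listed at 0.

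Differences were fitted on log2(value + 1) with limma 3.58.1 in R 4.3.3, with a mean-variance trend, over 10 libraries and 11518 genes. Calls needed an adjusted p (Benjamini-Hochberg) under 0.1 and a log2 size over 0.4. The code was tested on simulated data. Named genes were RNF5, the study's genes, the 6 largest opposite differences in each direction, the 4 largest in each class with a call in 1 line (mean of at least 50, libraries apart, and a 95% interval within 1 of zero in the other line), and up to 4 members of each list. Some genes that the rule picked are not reported here. The members and lists were chosen with earlier results of these data known. Estimated depth was 13300000 to 21400000 counted reads. Alternatives were other pseudocounts, filters, scalings, thresholds and fits, and leaving out each library in turn. Gene positions came from the GENCODE annotation on GRCh37. Promoter sequences came from RefSeq (GRCh38.p14), and promoters on chromosome 8 were not searched.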

Additional observations from a re-analysis of the deposited data

Results flagged for a closer look

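A test of the difference between the lines singled out 29 named genes, given here as the log2 fold change in U937 minus that in HL-60. The genes that rose in U937 and fell in HL-60 were SPRY4 (5.85), CCL2 (5.78), MT-ND2 (5.15), MT-CYB (5.02), MICAL2 (4.78) and ETV5 (4.06). Those that fell in U937 and rose in HL-60 were PRSS57 (-5.86), GIPR (-4.78), COL9A3 (-4.51), SMIM14 (-3.76), TMEM91 (-3.70) and TSC22D3 (-3.60). Genes with a call in U937 alone were LINC00680 (2.61), TFRC (2.57), ZNF551 (2.498), F13A1 (-3.42), FBXO10 (-2.75), MROH6 (-2.58) and BARX1 (-2.55). Genes with a call in HL-60 alone were IL17RE (-3.35), CTSZ (-2.62), SERPINB1 (-2.43), GSN (-2.31), PTPRU (1.93), PHACTR1 (1.66), SLC16A10 (1.64) and ZBED3 (1.59). Among the genes the study followed, CDKN2D (-0.88) and ANXA1 (1.75) differed. All but CDKN2D and ANXA1 were picked by the size of this difference. Groups of 2 or 3 libraries were too small to test for an outlying sample.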

How the results depend on the processing

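No called difference changed sign under any setting run. With array weights, U937 had 972 genes up and 788 down, HL-60 had 1485 down, the genes down in U937 and up in HL-60 were 162 and the U937-only genes were 1016. With each line fitted alone, U937 had 833 up and 917 down. At an adjusted p under 0.05, HL-60 had 785 up and 556 down, the opposite genes were 98 and 118 and the HL-60-only genes were 516. The causes were not tested, except that a stricter threshold gives fewer calls by construction.

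Leaving out 1 library at a time gave 2200 to 4988 called differences (1082 to 2633 higher and 1118 to 2355 lower), 582 to 2642 genes up and 563 to 2135 down in U937, and 425 to 1549 up and 285 to 1288 down in HL-60. The classes ranged from 54 to 400 (opposite, up in U937), 91 to 388 (opposite, down in U937), 653 to 2805 (U937 only) and 288 to 1004 (HL-60 only). The RNF5 values ranged from -0.73 to 0.18 for the difference, from -3.98 to -3.30 in U937 and from -3.82 to -2.91 in HL-60. The lowest U937 counts came without shRNF5_U937 replicate 1 and the lowest HL-60 counts without shRNF5_HL_60 replicate 3. Over the 162 genes that the naming rule picked, leaving out a library left the result the same in 1503 cases. It was weaker in 115, where the call was lost, and stronger in 2. The 1503 include genes that had no call to lose, such as RNF5. CDKN2D was among those lost in 7 of the 10.

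Same-numbered HL-60 libraries had deviation correlations of 0.463, 0.139 and -0.0838, against -0.547 to 0.367 for unlike numbers. With 3 libraries per construct these values cannot show whether the numbers pair the samples, and U937 shares 1 number only. The main fit used no pairing. With a replicate block in HL-60 the called differences were 3568, of which 3500 were shared. The opposite classes then held 187 genes up in U937 and 231 down in U937. Log2 fold changes also followed transcript length across genes, with rho 0.0964 in U937 and -0.224 in HL-60. Corrected for length and GC, 4346 differences were called, 3457 of them shared.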
